A study of Mus musculus with 374 samples.

Results

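The clustered histone genes are the mouse genes that encode the histones made during DNA replication, and they lie mostly in tandem arrays. They were chosen as every row of the count table whose symbol in GENCODE M21 begins with Hist1h, Hist2h, Hist3h or Hist4h, and this gave 63 of the 19829 mouse gene rows. By type they comprised 5 genes for the linker histone H1, 19 for H2A, 15 for H2B, 11 for H3 and 13 for H4. GENCODE M21 holds 70 such symbols, and Hist2h2aa1, Hist2h3c1, Hist1h2bm, Hist1h2bh, Hist1h2be, Hist1h1t and Hist1h2ba are not analysed here. In that annotation (GRCm38) 51 of the members lie on chromosome 13, 8 on chromosome 3, 3 on chromosome 11 and 1 on chromosome 6, and Hist1h2al, Hist1h2aj and Hist3h2bb-ps are listed as pseudogenes.

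A single C57BL/6 female mouse of 10 to 13 weeks, for which the labels name no genetic change or treatment, gave 374 single cells sorted into 5 populations. Erythroblasts (Ter119+ CD44+ with middle or high forward scatter, 96 wells), granulocytes (Mac1+ Gr1+, 96 wells), progenitor/stem cells (lineage negative, Sca1+ Kit+, called LSK cells below, 95 wells) and B lymphocytes (B cells, B220+ with low forward scatter, 44 wells) came from the bone marrow, and T cells (CD3+ with low forward scatter, 43 wells) from the thymus. CEL-seq2, a protocol that starts reverse transcription from an oligo-dT primer and tags the 3' end of each molecule with a cell barcode and a unique molecular identifier (UMI), was run on 1 plate. Each population is thus 1 sample and has no replicate, so no test was made, and the 95% intervals given below are exact and cover counting error only.

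The 5 populations held 666728 UMIs on mouse genes (erythroblasts), 834812 (LSK cells), 403506 (granulocytes), 135808 (B cells) and 200396 (T cells), and single wells held between 8 and 24033. Levels are given as CPM, the UMIs of a gene or list divided by all UMIs on mouse genes and scaled to a common total, as sums over the wells of a population. The marker list of each population was highest in that population, as with 3957 CPM of T cell markers in the T cells against at most 73.6 CPM elsewhere. Some wells went against their labels. The B cell well A8 had Gr1 fluorescence far above that of the other B cell wells, and the granulocyte wells J14 and J12 held 1353 and 987 CPM of granulocyte markers against a median of 166098 CPM. Haemoglobin, at 235370 CPM in the erythroblasts, was at 12136 to 28290 CPM in the other populations, and the part of erythroblast RNA in their counts was not tested.

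Replication-dependent histone genes are transcribed mainly in S phase, when new DNA must be packed into nucleosomes. The core histones H2A, H2B, H3 and H4 form the protein disc around which DNA is wound, and H1 binds the linker between discs. Messenger RNAs of these genes generally end in a conserved stem-loop in place of a poly(A) tail, and the stem-loop is bound by Slbp, which directs 3' end cleavage, export and translation. Variants such as H2afx, H3f3b and Cenpa are encoded elsewhere in the genome, and most of them have ordinary polyadenylated messages. Erythroblasts are among the most rapidly dividing cells of the marrow before they condense and lose their nuclei.

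The 3' ends of the transcripts are shown first, because an oligo-dT primer meets them. A stem-loop was sought on the sense strand of the annotated transcripts as GGNNCT, any 4 bases and the reverse complement of the first 6 bases, and 40 of the 63 members held one, as did 273 of the 55450 genes with a transcript in GENCODE M21 (0.492%). The 40 members carried 8 different stem-loops. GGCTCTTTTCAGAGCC was found in 21 of them (3 H1, 9 H2A, 5 H2B and 4 H3 genes) and in none of the 12 H4 genes with a stem-loop. Each line below gives the stem-loop of 16 bases and the 14 bases before it, 5′ to 3′, with the longest run of adenines before the stem-loop in capitals. The lines show the members with a stem-loop and at least 100 UMIs over all wells, a member with the fewest UMIs among the H1, H2A and H4 genes that hold one, and H2afx, which was added after its values were seen.
Hist1h2ap: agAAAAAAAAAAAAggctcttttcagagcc
Hist1h2ao: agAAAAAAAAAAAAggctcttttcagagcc
Hist1h2ab: ttaaccAAAAcaaaggctcttttcagagcc
Hist1h2ae: gtAAAAAAAAcaaaggctcttttcagagcc
Hist2h2ac: cacgaatccAAAAAggctctttttagagcc
Hist1h2ad: tgtatAAAAAcaaaggctcttttcagagcc
Hist1h2ag: tgatcgccaacAAAggctcttttcagagcc
Hist2h2aa2: cgagctcctAAAAAggctcttttcagagcc
Hist1h1e: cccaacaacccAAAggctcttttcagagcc
Hist1h1c: ctaacaatccAAAAggctcttttcagagcc
Hist1h1d: tgAAAAtctcaaacggctcttttcagagcc
Hist1h4i: caatgctacttAAAggccctttttagggcc
Hist1h4m: ctttctcaactAAAggcccttttcagggcc
H2afx: cacacctccacAAAggcccttttaagggcc

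Hist1h2ap and Hist1h2ao had 12 adenines in a row directly before the stem-loop, and no other gene with a stem-loop in the annotation had a run of 12 or more in the 20 bases before it. These 2 genes also held the most UMIs of all members, 4371 and 955. The next longest runs were 8 adenines in Hist1h2ae, with 204 UMIs, and 7 in Hist1h3c, with 25 UMIs. The 37 members with a stem-loop and a run under 8 had a median of 15 UMIs and at most 250. Runs elsewhere in a transcript are not counted here, and Hist1h2ac held one of 15 adenines with 41 UMIs. Hist1h2ak and Hist1h2al, without an annotated stem-loop, had 353 and 293 UMIs and no run above 3 in the transcript. Across the 40 members with a stem-loop, Spearman's rho of run length with UMIs was 0.51, and across the 10 H2A genes among them it was 0.70. Both are descriptions across genes, which share sequence and are not independent. Whether priming within these runs had a part in the counts was not tested.

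**Figure D1:**
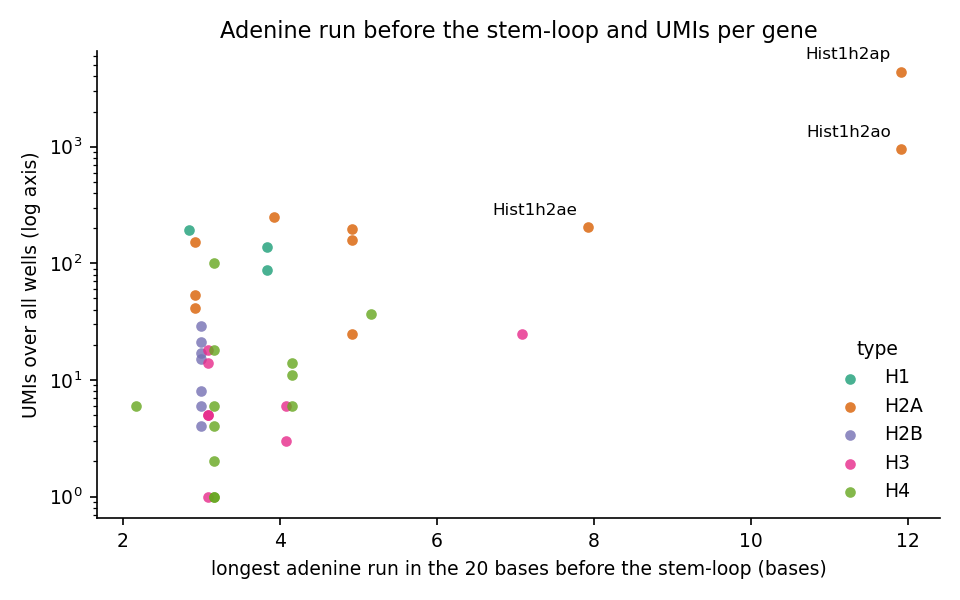
UMIs over all wells (log axis) of the 40 members with a stem-loop against the longest adenine run in the 20 bases before it, coloured by histone type. Hist1h2ap and Hist1h2ao, with runs of 12, lie at 4371 and 955 UMIs, and the members with a run under 8 lie at or below 250.

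The annotated transcripts of 21 members ended within 100 bases after the stem-loop, and these held 6267 UMIs, of which Hist1h2ap and Hist1h2ao held 5326. A further 19 members had transcripts that run on for more than 100 bases, which held 944 UMIs, and 9 of them had a polyadenylation hexamer (AATAAA or ATTAAA) in the last 40 bases. Hist1h1e ran on for 1153 bases after the stem-loop, Hist1h1c for 840, Hist1h4i for 330 and Hist1h1d for 4884. No stem-loop was in the annotated transcripts of the other 23 members, which held 1701 UMIs, among them Hist1h2bc, Hist1h2ak and Hist1h1b. An annotation that stops at the end of the coding sequence hides a stem-loop, so its absence here says nothing about the message in the cell.

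Reads could be split between members of nearly the same sequence. Of the 433 different 50-base words of the Hist1h2ap transcript, 93.1% were also in Hist1h2ao, and the median H2A gene shared 67.1% of its words with at least 1 other member. The medians were 49.7% for H2B, 54.1% for H3, 39.5% for H4 and 2.21% for H1. The counts of single H2A, H2B, H3 and H4 genes are therefore uncertain, and as far as members go those of H1 genes and of the type sums less so. Words shared with genes that are no members were counted only for H2afx and Gm11336. Gm11336, a pseudogene with 691 UMIs, had 52.6% of its words in a member.

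All 5 types were highest in the erythroblasts. The members together held 7355 UMIs there, 11032 CPM (interval 10781 to 11287), which is 76.6 UMIs per well. They held 586 UMIs and 1452 CPM (1337 to 1575) in the granulocytes, 183 UMIs and 1347 CPM (1159 to 1558) in the B cells, 760 UMIs and 910 CPM (847 to 977) in the LSK cells, and 28 UMIs and 140 CPM (92.8 to 202) in the T cells. The intervals of the granulocytes and the B cells overlap, while the erythroblasts lie far above and the T cells far below all others. In sums over wells, fewer cells with these transcripts and less of them per cell cannot be told apart. Without well A8 the B cells were at 1379 CPM. Single wells moved these values more, since the B cells were at 855 CPM without well A11 and the granulocytes at 921 CPM without well I13.

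Erythroblasts exceeded the LSK cells 12.1-fold (interval 11.2 to 13.1), a log2 ratio of LSK cells over erythroblasts of -3.60 (-3.71 to -3.49), and exceeded the granulocytes 7.60-fold (6.98 to 8.28). The median log2 ratio of all 8076 genes with at least 20 UMIs in the first pair was 0.98, and the ratio of the histone sum lay -4.58 from it. LSK cells were 6.52-fold (4.47 to 9.87) above the T cells. They were lower than the granulocytes, with a log2 ratio of -0.67 (-0.83 to -0.52), and lower than the B cells, with -0.57 (-0.80 to -0.32). Both of these smaller differences turned with another scaling, to 0.28 and 0.76 when UMIs were divided by those of the ERCC spike-in RNA of the same wells, which moved the median of all genes to 1.91 and 1.64. B cells exceeded the T cells 9.64-fold (6.46 to 14.9).

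**Figure D2:**
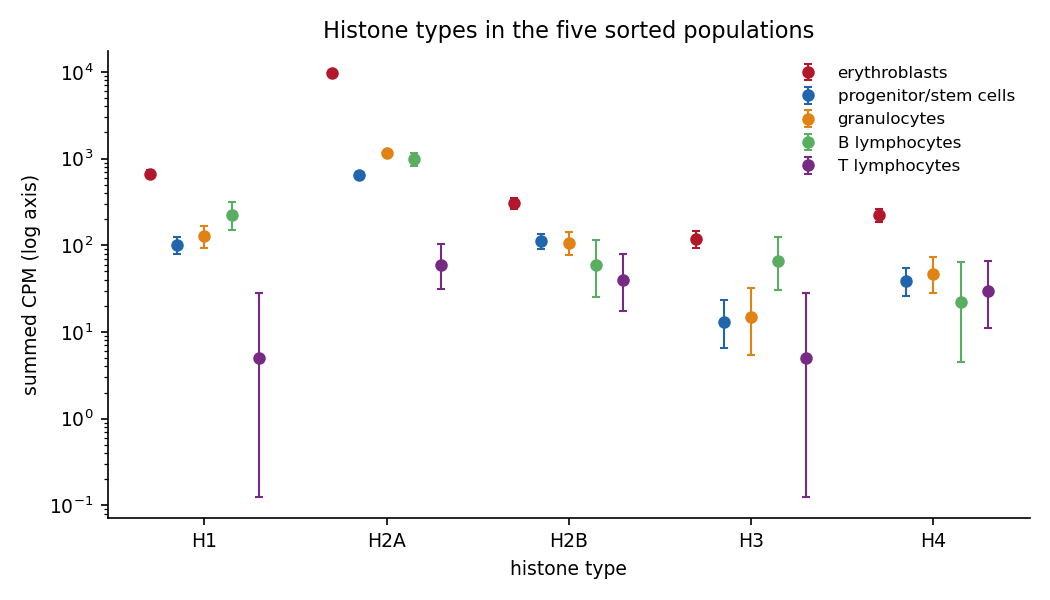
Summed CPM (log axis) of each histone type in each of the 5 populations, with 95% exact Poisson intervals for counting error. The erythroblasts are highest for every type, with H2A at 9722 CPM there against at most 1157 in the other populations.

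Haemoglobin was taken as a reference for erythroblast RNA in the wells of the other populations. As a share of the erythroblast level, clustered histones were at 8.25% in the LSK cells, 13.2% in the granulocytes, 12.2% in the B cells and 1.27% in the T cells. Haemoglobin was at 5.16%, 6.55%, 12.0% and 7.52% in the same order. The histone share was thus above the haemoglobin share in the LSK cells and granulocytes, close to it in the B cells and far below it in the T cells. The 4 wells of most histone UMIs in each population were then left out. The histone share was 3.72% in the LSK cells, 3.98% in the granulocytes, 5.18% in the B cells and 0.896% in the T cells. Picking wells by their histone UMIs lowers this share by itself. The haemoglobin share and the erythroblast level were kept from all wells, so these shares cannot be set against those of haemoglobin. The part of erythroblast RNA in these levels was not tested.

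H2A genes held most of the UMIs. They contributed 7635 of the 8912 histone UMIs over all wells, against 609 for H1, 355 for H2B, 207 for H4 and 106 for H3. Their share of the histone UMIs was 88.1% (87.4% to 88.9%) in the erythroblasts, 79.7% (76.2% to 82.9%) in the granulocytes, 72.7% (65.6% to 79.0%) in the B cells, 71.2% (67.8% to 74.4%) in the LSK cells and 42.9% (24.5% to 62.8%) in the T cells. Since each molecule gives 1 tag at its 3' end, counts of different genes were compared without division by length. A message without a poly(A) tail can be missed altogether, so the shares describe what was captured and not the make-up of the chromatin.

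Hist1h2ap (ENSMUSG00000094777, chromosome 13, 21833026 to 21833507, reverse strand) had 3714 UMIs and 5570 CPM (5393 to 5753) in the erythroblasts. It had 270 UMIs in the granulocytes, 85 in the B cells, 294 in the LSK cells and 8 in the T cells. The erythroblasts alone held most of its 4371 UMIs. Hist1h2ao, its near copy on the forward strand of the same chromosome, had 820, 56, 13, 65 and 1 UMIs in the same order. The ratio of the pair was 4.53 in the erythroblasts, 4.82 in the granulocytes, 6.54 in the B cells and 4.52 in the LSK cells. Together they made up 59.8% of all histone UMIs. Without them the erythroblasts were at 4231 CPM, the granulocytes at 644, the B cells at 626 and the LSK cells at 480.

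Other H2A genes were lower and followed the same order in part. Hist1h2ak had 298 UMIs in the erythroblasts, 19 in the granulocytes, 7 in the B cells, 29 in the LSK cells and 0 in the T cells. Hist1h2al, listed as a processed pseudogene, had 254, 18, 3, 18 and 0. For Hist1h2ab the counts were 213, 18, 3, 16 and 0. These genes share much sequence with the rest of their type, and their profiles over the populations are not independent of one another. Hist1h2ae had 174, 12, 3, 15 and 0 UMIs, and Hist2h2ac, from the smaller cluster on chromosome 3, had 170, 7, 2, 19 and 0. Hist1h2af, Hist1h2ad and Hist1h2ag had 129 to 146 UMIs in the erythroblasts and 7 to 13 in the granulocytes and LSK cells. The 9 H2A genes under 100 UMIs had 25 to 87 over all wells. Among them Hist3h2a, from chromosome 11, was the most even, with 30 UMIs in the erythroblasts, 12 in the LSK cells, 4 in the granulocytes, 5 in the B cells and 2 in the T cells.

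All 19 H2A genes had at least 20 UMIs in the erythroblasts and LSK cells together, and all were more than 2-fold higher in the erythroblasts, as were 12.1% of all genes tested. They reached 20 UMIs mainly through the erythroblasts, so this count is a description. Summed, H2A was at 9722 CPM in the erythroblasts and 648 CPM in the LSK cells, a 15.0-fold difference (13.7 to 16.4). This value is above that of any other type in this pair, and its interval does not overlap those of H1, H2B or H4. For H2B this rests on 1 gene, since without Hist1h2bc its interval was 5.46 to 16.7 and overlaps that of H2A. For H3, with 79 and 11 UMIs, the interval of the fold was 4.76 to 18.7 and includes that of H2A.

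The H1 genes encode the linker histones, and their transcripts are told apart well. Hist1h1e had 139 UMIs and 208 CPM in the erythroblasts, 18 UMIs in the granulocytes, 14 in the B cells (103 CPM), 24 in the LSK cells and 0 in the T cells. Hist1h1b had 130, 6, 4, 14 and 0 UMIs. For Hist1h1c they were 82, 21, 8, 26 and 1. The log2 ratio of LSK cells over erythroblasts was -3.54 for Hist1h1b and -1.98 for Hist1h1c. Hist1h1d had 68, 5, 4, 10 and 0 UMIs, and Hist1h1a, the gene with the fewest, had 25, 1, 0, 9 and 0. Summed, H1 was at 666 CPM (605 to 731) in the erythroblasts, 221 (149 to 315) in the B cells, 126 (94.1 to 166) in the granulocytes and 99.4 (79.2 to 123) in the LSK cells. A single UMI was counted in the T cells.

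The erythroblast value of H1 was lifted by 2 wells. F1 and D1 held 60 and 47 of the 444 H1 UMIs, 24.1% of them, against a median of 2 per erythroblast well. Their haemoglobin CPM ranked 82nd and 69th of the 96 wells, and their totals of 14493 and 13331 UMIs were above the median of 6114 UMIs. Without these 2 wells H1 was at 527 CPM in the erythroblasts, still the highest of the 5 populations.

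For H2B the picture was different, because 1 gene departed from the others. Hist1h2bc had 85 UMIs and 127 CPM (102 to 158) in the erythroblasts, 77 UMIs and 92.2 CPM (72.8 to 115) in the LSK cells, 27 UMIs and 66.9 CPM in the granulocytes, and 4 UMIs each in the B and T cells. Its log2 ratio of LSK cells over erythroblasts was -0.47 (-0.93 to -0.00491), the nearest to 0 of all members tested in that pair. In GENCODE M21 its gene spans 23684199 to 23692908 on the forward strand of chromosome 13, far longer than its transcript of 1156 bases, and no stem-loop was in the transcript. Summed over the type, H2B was at 304 CPM in the erythroblasts and 111 CPM in the LSK cells, a 2.73-fold difference (2.13 to 3.53). Without Hist1h2bc the difference was 9.23-fold (5.46 to 16.7), with 118 and 16 UMIs. The other H2B genes with at least 20 UMIs were Hist2h2be (22, 3, 0, 8 and 2 UMIs in the erythroblasts, granulocytes, B cells, LSK cells and T cells), Hist3h2ba (24, 3, 1, 1 and 0) and Hist1h2bj (17, 3, 0, 0 and 1). The remaining 11 H2B genes had 1 to 17 UMIs each.

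H3 and H4 genes were barely captured. H3 summed to 79 UMIs and 118 CPM (93.8 to 148) in the erythroblasts, 9 UMIs in the B cells, 11 in the LSK cells, 6 in the granulocytes and 1 in the T cells. Hist1h3c, with 20 of its 25 UMIs in the erythroblasts, was the only H3 gene to reach 20 UMIs, and the other 10 had 1 to 18 each. H4 summed to 147 UMIs and 220 CPM (186 to 259) in the erythroblasts and 32 UMIs in the LSK cells, a 5.75-fold difference (3.90 to 8.72). Hist1h4i gave 63 UMIs in the erythroblasts, 19 in the LSK cells, 13 in the granulocytes, 1 in the B cells and 4 in the T cells. It was the most evenly spread of the H4 genes with at least 20 UMIs, the other being Hist1h4d with 32, 1, 3, 0 and 1 UMIs. The remaining 11 H4 genes had 1 to 18 UMIs each, and the intervals of the H4 sums of the 4 populations other than erythroblasts all overlap. For H3 the B cells, at 66.3 CPM (30.3 to 126), lay above the LSK cells, at 13.2 CPM (6.58 to 23.6), on 9 and 11 UMIs.

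**Figure D3:**
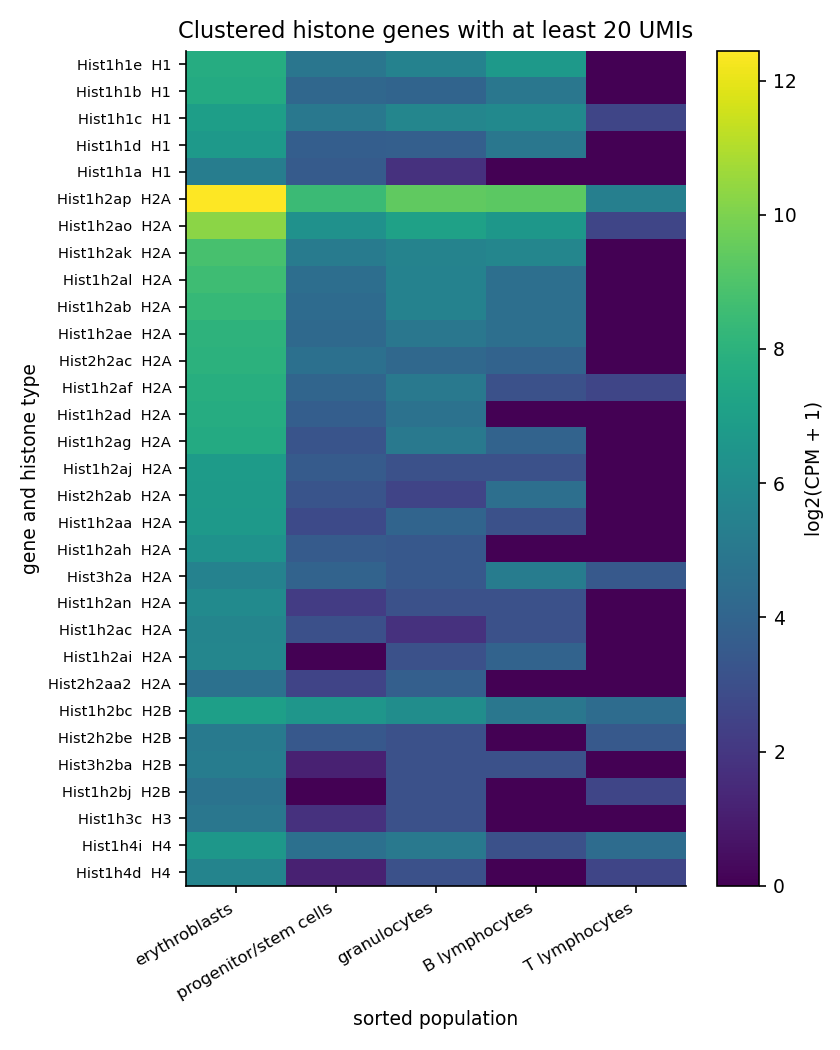
Colour scale of log2(CPM + 1) for the 31 members with at least 20 UMIs (rows, grouped by histone type) in the 5 populations (columns). The erythroblast column is the brightest in every row, Hist1h2ap stands out at 5570 CPM, and Hist1h2bc changes least between erythroblasts and LSK cells.

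Counted gene by gene, 29 of the 30 members with at least 20 UMIs in the pair were at least 2-fold higher in the erythroblasts than in the LSK cells, where 12.1% of all genes tested were, and Hist1h2bc was in neither direction. No member was higher in the LSK cells, where 49.4% of all genes were. The median log2 ratio of the members was -3.51. These 30 members reached 20 UMIs mainly through the erythroblasts, and 33 members could not be judged, so the count describes the better-captured genes. Over all wells, the erythroblasts were the highest population for 54 of the 63 members. The share over all genes was not taken for this count. Of the 63 members 32 had under 20 UMIs, where single UMIs can decide which population is highest, so nothing is read from it. The erythroblasts were also highest for all 31 members with at least 20 UMIs, against 16.3% of the 9512 genes with as many. Several of these 31 reached 20 UMIs only with the erythroblasts, so this count is a description as well.

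In the comparison of erythroblasts with granulocytes, 29 of 31 members were at least 2-fold higher in the erythroblasts, where 35.4% of all genes were. None was higher in the granulocytes (28.8% of all genes). Most of these 31 members reached 20 UMIs only through the erythroblasts, so this count is a description. Between LSK cells and granulocytes 15 members could be judged, and 5, all of them H2A genes, were higher in the granulocytes (11.7% of all genes) and none in the LSK cells (48.2%). With 9 members judged against the B cells, 1 was higher in the LSK cells (19.3% of all genes) and 1 in the B cells (7.51%). These were Hist1h2bc and Hist1h1e, named after their values were seen. Of 7 members judged against the T cells, 5 were higher in the LSK cells (19.4%) and none in the T cells (9.17%). The members judged against the B cells and the T cells reached 20 UMIs mainly through the LSK cells, so these counts are descriptions. Between T and B cells only 1 of the 63 members, Hist1h2ap, could be judged. It was past 2-fold and higher in the B cells (9.86% of all genes were, and 20.1% were higher in the T cells). It reached 20 UMIs through the B cells, with 85 UMIs there and 8 in the T cells. The comparisons share the populations they are made of, and each is given with its own values.

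The other genes of the S phase and of histone supply were compared in the same way. Of 23 S phase genes, such as Pcna, the sliding clamp of DNA polymerase, 15 were at least 2-fold higher in the erythroblasts than in the LSK cells and none was higher in the latter, against 12.1% and 49.4% of all genes tested in this pair. Pcna was at 754 CPM in the erythroblasts, 218 in the LSK cells, 206 in the B cells, 130 in the T cells and 54.5 in the granulocytes. All 19 of the G2 and mitosis genes judged were higher in the erythroblasts, with Mki67 at 5061 against 398 CPM and Top2a at 2176 against 374 CPM. Summed, the S phase list was at 7016 CPM in the erythroblasts and 2573 CPM in the LSK cells, a narrower difference than that of the histones. In the granulocytes the S phase list was at 803 CPM, below the LSK cells, while the histone sum was above them. Without the 4 wells of most histone UMIs in each population, the histone sums were 439 CPM in granulocytes and 410 CPM in LSK cells. Per ERCC UMI the order of the histone sums turned.

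Among the replication-independent variants, H2afx followed the clustered genes and the others did not all do so. H2afx, whose product marks sites of DNA breaks when phosphorylated, had 622 UMIs in the erythroblasts, 53 each in the LSK cells and granulocytes, 9 in the B cells and 2 in the T cells. For every 100 histone UMIs this gave 8.46 (7.78 to 9.18) in the erythroblasts, 6.97 (5.18 to 9.22) in the LSK cells, 9.04 (6.69 to 12.0) in the granulocytes and 4.92 (2.21 to 9.54) in the B cells, and all of these intervals overlap. The transcript of H2afx runs on for 822 bases after the stem-loop printed above and has a polyadenylation hexamer near its end, and 6.14% of its 50-base words occur in a member. H2afy, which encodes macroH2A, went the other way, with 58 UMIs in the erythroblasts and 1985 in the LSK cells. H3f3b, for the replacement histone H3.3, was nearly level at 807 and 698 CPM, and the linker variant H1f0 was at 25.5 and 103 CPM. Cenpa, the H3 variant of centromeres, was at 396 CPM in the erythroblasts and 43.1 CPM in the LSK cells. In all, 3 of 8 variants judged were higher in the erythroblasts (12.1% of all genes) and 2 in the LSK cells (49.4% of all genes).

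Of 12 genes judged for transcription and 3' end processing of histone messages, 1 was at least 2-fold higher in the erythroblasts and 4 in the LSK cells, and neither count is above the share of all genes, 12.1% and 49.4%. The 1 gene was Slbp, the stem-loop binding protein, with 81 UMIs and 121 CPM in the erythroblasts against 44 UMIs and 52.7 CPM, a log2 ratio of erythroblasts over LSK cells of 1.20 (0.66 to 1.77). Npat, the coactivator of histone transcription, was at 64.5 and 89.8 CPM. Of 9 histone chaperones judged, which carry histones to DNA, 2 were higher in the erythroblasts and 1 in the LSK cells, against the same shares of all genes. Asf1b was at 313 and 44.3 CPM and Chaf1a, a subunit of chromatin assembly factor 1, at 154 and 62.3 CPM.

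The wells of a population were far from alike. Every erythroblast well had at least 1 histone UMI, and the well values ran from 322 CPM through a median of 13006 CPM to 23478 CPM. They fell into separate groups, with 76 wells above 5000 CPM, 18 below 2500 CPM and 2 between, limits that were set after the values were seen. All 4 plate rows held by erythroblasts spanned this range, with lowest wells at 322 to 577 CPM and highest wells at 18839 to 23478 CPM.

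In the other populations most wells were low, and a few wells of LSK cells, granulocytes and B cells were above 5000 CPM, as most erythroblast wells were. Only the B cell well A11 was above the erythroblast median of 13006 CPM. Among the LSK cells the median was 271 CPM and the highest well, M18, was at 8961 CPM with 155 UMIs. Wells M18, L6, N3 and N14 held 58.2% of the histone UMIs of their population. Without them it was at 410 CPM. In the granulocytes the median was 334 CPM, and wells I13, G16, J14 and J12 held 73.0% of the UMIs, with 235 in I13 alone. Without these 4 wells the granulocytes were at 439 CPM. Wells J14 and J12 are those low in the granulocyte markers, whereas G16 held 230946 CPM of these markers. I13 held 73044 CPM of them, against a median of 166098 CPM, and 22425 UMIs in all, against a median of 3880. In the B cells the median was 338 CPM and well A11 held 71 of the 183 UMIs, at 14789 CPM. Well B21 followed at 4988 CPM, B15 at 4873 CPM with 9 UMIs, B22 at 3956 CPM and B24 at 3689 CPM. B21, B22 and B24 ranked 7th, 3rd and 4th in haemoglobin of the 44 wells. Without the neighbouring wells B19 to B24, which include the last-named 3, the B cells were at 1120 CPM. The highest T cell well was at 530 CPM with 2 UMIs.

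**Figure D4:**
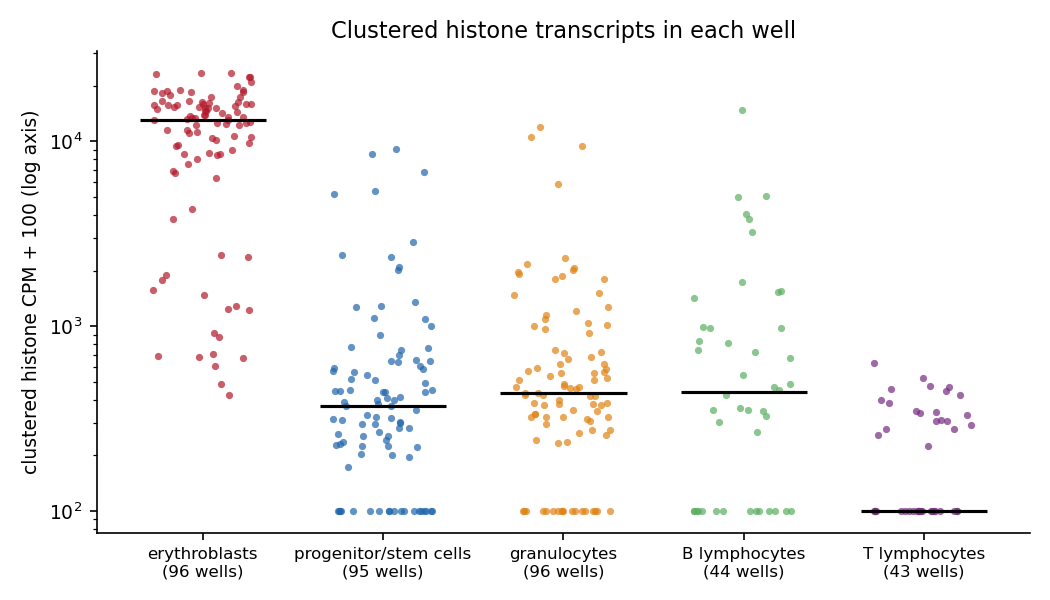
Clustered histone CPM plus 100 (log axis) of each well by population, with a bar at the median. Most erythroblast wells lie above 5000 CPM and 18 lie below 2500 CPM, while 4 to 5 wells of the LSK cells and of the granulocytes, and 1 of the B cells, reach above 5000 CPM.

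Most of the high wells outside the erythroblasts were also high in other cell cycle genes. M18, L6, N3 and N14 ranked 3rd, 2nd, 6th and 1st of the 95 LSK cell wells in G2 and mitosis CPM and 11th, 7th, 2nd and 20th in S phase CPM. In haemoglobin they ranked 83rd, 82nd, 94th and 69th. I13, G16, J14 and J12 ranked 3rd, 2nd, 1st and 11th of 96 in G2 and mitosis and 2nd, 4th, 6th and 1st in S phase, and 95th, 62nd, 93rd and 66th in haemoglobin. A11 ranked 1st of 44 in G2 and mitosis, 3rd in S phase and 41st in haemoglobin, and B21, B22 and B24 ranked 2nd, 4th and 8th in G2 and mitosis. B15 went the other way, with 541 CPM in both lists. Wells high in cell cycle genes also occurred with few histone UMIs. The T cell well O4 had 13518 CPM of G2 and mitosis genes, the most of its population, and 4 histone UMIs (368 CPM). The B cell well B18 had 14209 CPM of S phase and 4992 CPM of G2 and mitosis genes with 384 CPM of histones, and the granulocyte well I4 had 5636 CPM of G2 and mitosis genes with 134 CPM of histones. These wells were named after their values were seen.

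The types were not equally gathered in these wells. Of the 541 H2A UMIs of the LSK cells, 73.6% (69.6% to 77.2%) were in M18, L6, N3 and N14, and of the 83 H1 UMIs 37.3% (27.0% to 48.7%). Of the 77 Hist1h2bc UMIs none was in these wells (0% to 4.68%), and they came from 22 of the other wells. These intervals treat each UMI as independent, which UMIs of the same well need not be. In the granulocytes 83.7% (80.1% to 87.0%) of the 467 H2A UMIs and 2 of the 27 Hist1h2bc UMIs were in I13, G16, J14 and J12. The 4 wells were picked by all histone UMIs, most of which are H2A, so the H2A share is fixed in part by the choice, and Hist1h2bc adds little to it.

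To compare wells at the same depth, each was thinned to 2000 UMIs. A clustered histone UMI was then found in 93 of 95 erythroblast wells (97.9%, 92.6% to 99.7%), 23 of 33 B cell wells (69.7%, 51.3% to 84.4%), 47 of 86 granulocyte wells (54.7%, 43.5% to 65.4%), 44 of 95 LSK cell wells (46.3%, 36.0% to 56.8%) and 6 of 42 T cell wells (14.3%, 5.43% to 28.5%). Before thinning the shares were 100% of the 96 erythroblast wells, 68.2% of the B cell, 81.2% of the granulocyte, 80% of the LSK cell and 48.8% of the T cell wells. The shallower wells left out numbered 1, 11, 10, 0 and 1 in the order erythroblasts, B cells, granulocytes, LSK cells and T cells. Haemoglobin UMIs were found in all thinned wells of all 5 populations, so a histone UMI in a well is not by itself a sign of a cell that makes it. The median depth was 3028 UMIs in the B cells and 7959 in the LSK cells.

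Across the 96 erythroblast wells, histone CPM had Spearman's rho of 0.10 with S phase CPM and 0.20 with G2 and mitosis CPM. Within the plate rows C to F the former was 0.26, 0.02, -0.37 and 0.38, and the latter 0.23, 0.30, 0.11 and 0.18. The points are cells of 1 mouse, they share the total UMI count as denominator, and the values have no test. The 22 S phase genes taken singly ranged from -0.16 (Gins2) to 0.29 (Tyms), and the 19 G2 and mitosis genes from -0.26 (Ccnb1) to 0.45 (Aurkb). Forward scatter, a measure of cell size, had rho of -0.36 (rows -0.11, -0.17, -0.55 and -0.55), CD44 fluorescence -0.25, and haemoglobin CPM 0.06.

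The gene most like the clustered histones across these wells was H2afx. Of 931 genes with at least 100 UMIs in the erythroblasts that are no members, it ranked 1st with rho of 0.81 (0.79, 0.75, 0.81 and 0.78 in rows C to F), where the median gene had -0.01 and 95% of the genes lay between -0.27 and 0.36. Thinned to 2000 UMIs per well rho was 0.59, and with H2A left out of the members it was 0.35. The next gene was Gm11336 with rho of 0.72, an unprocessed pseudogene at 23746166 to 23746499 on the reverse strand of chromosome 13, and 52.6% of its 50-base words occur in a member. Tuba1b, an alpha-tubulin, followed with 0.48 and Nsd2, a histone methyltransferase, with 0.47. At the other end stood Mpp1, a red cell membrane protein, with -0.45, and Cenpa was 3rd from the bottom of the list with -0.40 (-0.31, -0.26, -0.42 and -0.50 in the rows). Gm11336, Tuba1b, Nsd2, Mpp1 and Cenpa were named after their values were seen. The processing and chaperone genes ranged from -0.24 (Npm1) to 0.44 (Asf1b), with Slbp at 0.29, Npat at 0.07, Nasp at -0.06 and Ncbp1 at -0.18.

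**Figure D5:**
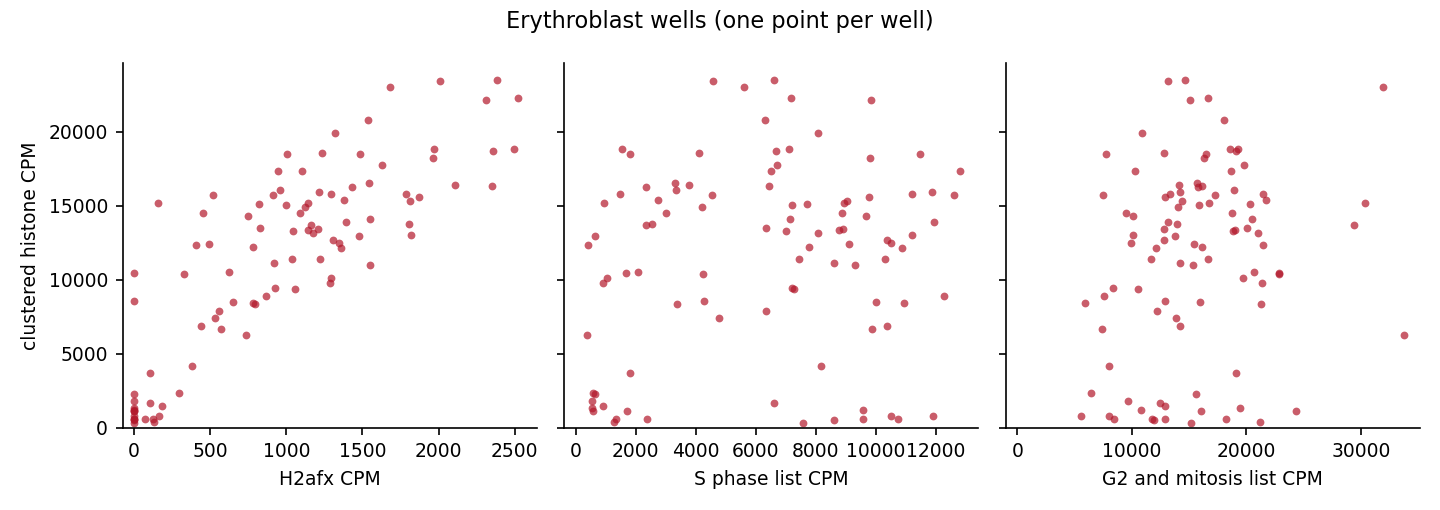
Clustered histone CPM of each of the 96 erythroblast wells against the CPM of H2afx, of the S phase list and of the G2 and mitosis list in the same well. Histone CPM rises with H2afx (rho of 0.81), and no such order is seen with the S phase list (0.10) or the G2 and mitosis list (0.20).

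The types varied together only loosely at this depth. In the erythroblast wells rho was 0.36 between H2A and H4, 0.40 between H1 and H4, 0.27 between H1 and H2A, 0.20 between H2A and H2B, 0.26 between H2A and H3 and 0.27 between H3 and H4. H2B with H4 gave -0.00. With a mean of 0.82 H3 UMIs and 1.53 H4 UMIs per erythroblast well, weak values of this size say little. In the other populations the median well held 0 to 2 histone UMIs, and no correlation is given.

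Promoters of the members were looked up because every type was highest in the erythroblasts. RefSeq promoters (GRCm38.p6, 250 bases before to 50 after the start) were matched for 55 of the 63 members and were searched on both strands for the octamer ATTTGCAT, which is known from H2B promoters as a site of Oct1, for the letters CCAAT, which several factors bind, and for a TATA box spelled TATAAA. The letters CCAAT were in all 43 matched promoters of H1, H2A, H2B and H3 genes and in 3 of 12 of H4 genes, against 37.9% of all 27025 promoters. The TATA box was in 33 of 55, against 14.2%. The octamer was in 7 of 17 H2A and 4 of 12 H2B promoters, in none of the H1, H3 and H4 genes, and in 1.75% of all promoters. Divergent H2A and H2B genes can share such a window, so these counts are not independent. The promoters of Hist1h2ap, the gene with the most UMIs, and of Hist2h2ac, which holds all 3 motifs, are shown 5′ to 3′ on the reverse strand with the 3 motifs and their reverse complements in capitals, at chr13:21833426-21833725 and chr3:96220831-96221130.
Hist1h2ap: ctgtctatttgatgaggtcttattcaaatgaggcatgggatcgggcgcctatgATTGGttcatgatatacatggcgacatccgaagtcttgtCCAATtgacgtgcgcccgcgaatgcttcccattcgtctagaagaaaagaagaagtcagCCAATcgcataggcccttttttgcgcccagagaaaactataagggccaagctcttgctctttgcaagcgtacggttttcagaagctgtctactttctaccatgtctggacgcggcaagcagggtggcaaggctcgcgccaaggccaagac
Hist2h2ac: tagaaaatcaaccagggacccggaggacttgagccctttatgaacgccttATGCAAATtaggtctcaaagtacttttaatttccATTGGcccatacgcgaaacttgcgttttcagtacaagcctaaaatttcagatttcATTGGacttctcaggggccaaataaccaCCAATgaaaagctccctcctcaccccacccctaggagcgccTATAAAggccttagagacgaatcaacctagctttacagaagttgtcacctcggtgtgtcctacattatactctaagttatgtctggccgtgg
Hist1h2ap held neither the exact letters TATAAA nor the octamer in this window, and other spellings of a TATA box were not sought. It was at 5570 CPM in the erythroblasts, and Hist2h2ac was at 255 CPM. A match of letters is a description and not a site bound in these cells.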

How the data were processed

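The authors deposited a table of UMI counts per gene and well, with duplicates collapsed by their package *scPipe* and no normalization. As the study describes it, reads are aligned with Rsubread by default, assigned to exons and demultiplexed by the designed barcodes. Which aligner, build, annotation and strand setting were used is "not given in the sources used here", so overlapping and antisense genes may share reads. The labels give contradictory layouts of read 1. Each column was tied to a sample through its well name, which left 9 columns unused.

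The members, gene lists and rules were chosen with earlier results of these data known. Gene symbols, coordinates and transcripts came from GENCODE M21 on GRCm38, and the authors may have used another build. UMIs were summed per population and divided by the UMIs on mouse genes (CPM). Intervals are 95% exact Poisson for sums, exact binomial for shares and exact conditional binomial for ratios. Of these, only the interval for ratios was tested on simulated data, which were drawn as Poisson counts. Folds were counted for genes with at least 20 UMIs in a pair, with sums under 3 UMIs set to 3. Values by population are given for members with at least 20 UMIs over all wells, and genes of other lists for their UMIs or ratio. The lists were S phase, G2 and mitosis, replication-independent variants, histone processing, chaperones, haemoglobin and markers of each population. Mcm7, Nusap1, H3f3a, Cstf2, Asf1a and Rbbp4 of these lists are not analysed here. Size factors came from scran 1.30.0 and TMM factors from edgeR 4.0.16 under R 4.3.3, as alternatives only. Python 3.11.15 with numpy, pandas, scipy 1.17.1 and matplotlib was used for the rest.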

Additional observations from a re-analysis of the deposited data

How the results depend on the processing

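Each population was 1 sample, so an alternative was set against the counting interval of the main value. Of 251 alternative values 164 stayed within it, 85 moved past it and 2 changed direction. No paired analysis was possible because each population was 1 sample from the same mouse and the replicate numbers only name wells. The cause of a move was not tested unless the setting itself gives it. With 28 histone UMIs in the T cells, and with 1 to 32 UMIs of H3 or H4 in each population other than erythroblasts, counting error is wide.

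As a mean over wells, histone CPM was 11518 in erythroblasts, 748 in LSK cells, 879 in granulocytes and 1152 in B cells, H2A CPM was 10218 in erythroblasts, 484 in LSK cells and 604 in granulocytes, and log2 ratios were -3.95 (LSK cells over erythroblasts), -0.23 (LSK cells over granulocytes) and 3.71 (erythroblasts over granulocytes). With Gm42418, mitochondrial genes and Mir6240 out of the denominator, CPM was 12606 in erythroblasts, 1090 in LSK cells, 1782 in granulocytes and 1850 in B cells. With the 20 genes of most UMIs in any population out of it, CPM was 18993, 1175, 2503 and 2123 in that order, and the log2 ratios of LSK cells were -4.01 over erythroblasts, -1.09 over granulocytes and -0.85 over B cells. Protein-coding members alone gave 10536 CPM in erythroblasts.

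With scran size factors the log2 ratios were -5.25 (LSK cells over erythroblasts), -1.02 (over granulocytes), -0.84 (over B cells) and 4.23 (erythroblasts over granulocytes), and with TMM factors -4.46 and -1.44 for the first and second of these. Per ERCC UMI, they were -3.48 over erythroblasts, 3.60 over T cells and 3.77 for erythroblasts over granulocytes, and they turned to 0.28 over granulocytes and 0.76 over B cells. The median log2 ratio of all genes for LSK cells over erythroblasts was 0.98 with CPM, 0.05 with scran, 0.12 with TMM and 1.09 with ERCC.

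Without the well of most histone UMIs in each population, CPM was 740 in LSK cells, 921 in granulocytes and 855 in B cells, and log2 ratios were -3.89 (LSK cells over erythroblasts), -0.32 (over granulocytes), -0.21 (over B cells) and 3.57 (erythroblasts over granulocytes). Leaving out the well of most UMIs of a type gave H1 at 589 CPM in erythroblasts and 0 in T cells, H2A at 497 CPM in LSK cells, 677 in granulocytes and 511 in B cells, and H3 at 0 in T cells.

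The next 3 settings were chosen after seeing the data. Without the 4 wells of most histone UMIs, CPM was 10687 in erythroblasts, 410 in LSK cells, 439 in granulocytes and 571 in B cells, and log2 ratios were -4.70 (LSK cells over erythroblasts), -0.10 (over granulocytes), 2.05 (over T cells), 4.60 (erythroblasts over granulocytes) and -2.53 (T cells over B cells). Without B19 to B24, B cells were at 1120 CPM and the ratio of LSK cells over them was -0.30. Without Hist1h2ap and Hist1h2ao, CPM was 4231, 480, 644 and 626 in erythroblasts, LSK cells, granulocytes and B cells, and log2 ratios were -3.14 (LSK cells over erythroblasts), -0.42 (over granulocytes) and 2.72 (erythroblasts over granulocytes).

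Counts of members past 2-fold changed with the UMI minimum, the fold and the scaling. With the minimum lowered to 1 UMI, genes also needed more than 3 UMIs in 1 population of the pair. Then 44 of 50 members were higher in erythroblasts than in LSK cells (10.5% of all genes) and 6 of 10 in B cells than in T cells (11.8%). Over LSK cells, 14 of 27 counted as higher in B cells (29.5%) and 4 of 27 in T cells (22.7%). Sums set to 3 UMIs gave all 4 T cell calls, with 0 UMIs in T cells and 4 to 6 in LSK cells. Some B cell calls arose likewise, such as Hist1h2ah with 0 UMIs in B cells and 9 in LSK cells. These 2 counts therefore do not show higher levels in B or T cells. From 50 UMIs on, 19 of 20 were higher in erythroblasts than in LSK cells (14.8%) and 19 of 20 than in granulocytes (40.2%), 3 of 3 in LSK cells than in T cells (17.8%), and 0 of 3 in granulocytes (13.7%) or B cells (6.56%) than in LSK cells. At 3-fold, 3 of 7 were higher in LSK cells than in T cells (6.77%) and 1 of 15 in granulocytes than in LSK cells (7.44%). With TMM factors 12 of 15 were higher in granulocytes (21.0%) and 2 of 9 in B cells (8.83%) than in LSK cells. The share of wells with a histone UMI, thinned to 1000 UMIs, was 90.5% in erythroblasts, 34.7% in LSK cells, 35.1% in granulocytes and 41.9% in B cells, and unthinned 100%, 80%, 81.2% and, in T cells, 48.8%. The correlation with S phase CPM across erythroblast wells was 0.24 as Pearson on log2(CPM + 10), and that with the variants list was 0.28 after thinning to 2000 UMIs against 0.62 before.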
